A study of Mus musculus with 6 samples.

Results

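The genes described here encode the nuclear subunits of the respiratory chain and of ATP synthase, and their liver transcripts were compared between 2 mouse strains. A gene was included when an array probe set was paired with that gene alone and its symbol named a subunit of complex I (Ndufa, Ndufb, Ndufc, Ndufs and Ndufv genes), complex II (Sdha to Sdhd), complex III (Uqcr genes and Cyc1), complex IV (Cox4 to Cox8 genes) or ATP synthase (Atp5 genes), or cytochrome c (Cycs). This gave 83 of 18194 genes that such a probe set represents: 35 of complex I, 4 of complex II, 9 of complex III, 1 for cytochrome c, 17 of complex IV and 17 of ATP synthase. Together they had 169 of 45037 probe sets. The rule used gene names only, not expression values, but it was set with earlier results of these data known. Complexes follow the symbols, so Ndufa4, now known as a subunit of complex IV, and its paralogue Ndufa4l2 are counted with complex I.

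The respiratory chain lies in the inner mitochondrial membrane. Complex I takes electrons from NADH and complex II takes them from succinate. Ubiquinone carries them to complex III and cytochrome c carries them on to complex IV, which reduces oxygen. Complexes I, III and IV pump protons, and ATP synthase uses the return flow of protons to make ATP. Most subunits are encoded in the nucleus and a small core is encoded in mitochondrial DNA. Liver depends on this chain to burn fatty acids and to pay for glucose production and urea synthesis.

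Livers came from 6 females on chow at 8 weeks of age, each mouse on its own array. There were 3 C57BL/6J mice and 3 mice of B6.C3H-6T, a congenic strain with C3H DNA on chromosome 6 and low serum IGF-1. Litters are not given. Both strains share the C57BL/6J background outside the transferred DNA. Where the C3H segment starts and ends on chromosome 6 is not stated. Values are log2 expression from RMA, and a positive difference means a higher mean in B6.C3H-6T. Replicate numbers only name a mouse, and the values of a gene are given in the order of replicates 1, 2 and 3.

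The promoters of these genes are shown first, since letters near the start of transcription are a feature the choice of genes did not use. A link between motifs and expression values was not tested. A window from 250 bases before to 50 bases after the start, from RefSeq on GRCm38.p6, was listed for 67 of the 83 genes, with 72 windows in all. Motifs of 4 factors known to act on mitochondrial genes were searched on both strands. The core bound by nuclear respiratory factor 1, with a position open to any base, was in 16 of 72 windows (22.2%). This compares with 4.6% of all 32851 windows and 7.77% of the 16689 windows of measured protein-coding genes. CCGGAAG, bound by ETS factors such as GABPA, was in 17 windows (23.6%, against 8.86% and 13.4%). AANATGGCG, bound by YY1, was in 9 (12.5%, against 2.38% and 3.71%). TCAAGGTCA, bound by estrogen-related receptors, was in 2 (2.78%, against 0.423% and 0.318%). In 35 windows none of the 4 was found. The median GC content was 58.5% in the subunit windows, 52.7% in all windows and 58.7% in those of measured protein-coding genes. A match is a match of letters and was not tested for binding.

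The stretches below are the 150 bases before the start, 5′ to 3′ on the gene's strand, with motif matches in capitals. They were chosen as the genes of smallest p, up to 2 per motif, that hold a match there. Atp5h, a peripheral stalk subunit of ATP synthase, lies on the minus strand (chr11:115419920-115420069). It has a nuclear respiratory factor 1 match starting 141 bases before the start and an ETS match at 38. Ndufa8, an accessory subunit of complex I (chr2:36049339-36049488, minus strand), has a nuclear respiratory factor 1 match at 30. Ndufb7, another accessory subunit (chr8:83566608-83566757, plus strand), has an ETS match at 20. Atp5g3, a gene for the membrane ring of ATP synthase (chr2:73911327-73911476, minus strand), has an estrogen-related receptor match at 52.
Atp5h: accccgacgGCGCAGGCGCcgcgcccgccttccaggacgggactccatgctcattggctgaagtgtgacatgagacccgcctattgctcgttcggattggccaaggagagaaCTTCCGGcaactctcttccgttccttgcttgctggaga
Ndufa8: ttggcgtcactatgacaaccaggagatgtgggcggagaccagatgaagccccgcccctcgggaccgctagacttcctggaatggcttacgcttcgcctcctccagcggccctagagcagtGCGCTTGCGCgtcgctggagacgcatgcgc
Ndufb7: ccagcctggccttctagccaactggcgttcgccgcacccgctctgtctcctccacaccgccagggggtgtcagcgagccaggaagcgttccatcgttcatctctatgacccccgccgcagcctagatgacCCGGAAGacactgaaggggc
Atp5g3: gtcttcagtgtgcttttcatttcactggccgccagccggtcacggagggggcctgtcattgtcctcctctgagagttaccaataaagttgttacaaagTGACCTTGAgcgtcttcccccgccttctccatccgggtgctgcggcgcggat
These 4 genes lie in ATP synthase and complex I and had small positive differences: 0.13 for Atp5h, 0.13 for Ndufa8, 0.15 for Ndufb7 and 0.12 for Atp5g3, none of which passed the test described next.

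Across the respiratory chain, subunit transcripts were slightly higher in B6.C3H-6T than in C57BL/6J, by a median of 0.10 on the log2 scale. Of 83 genes 75 had a higher mean in B6.C3H-6T and 8 a lower one (90.4% higher, against 56.1% of all genes, whose median difference was 0.02). The largest difference was 0.23 for Sdhb. No gene passed limma's test at an adjusted p under 0.05 (0 of 83, against 0.0715% of all genes), and the smallest adjusted p was 0.35. At an unadjusted p under 0.05 there were 4 genes, all higher, which is 4.82% of the members against 12.2% of all genes in either direction (6.36% higher, 5.82% lower). A linear fit without moderated variances also called 0 and had 3 at that unadjusted p. The 95% intervals of the differences reached at most 0.48, for Cox7a1, and at least -0.29, for Cox7c.

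**Figure D1:**
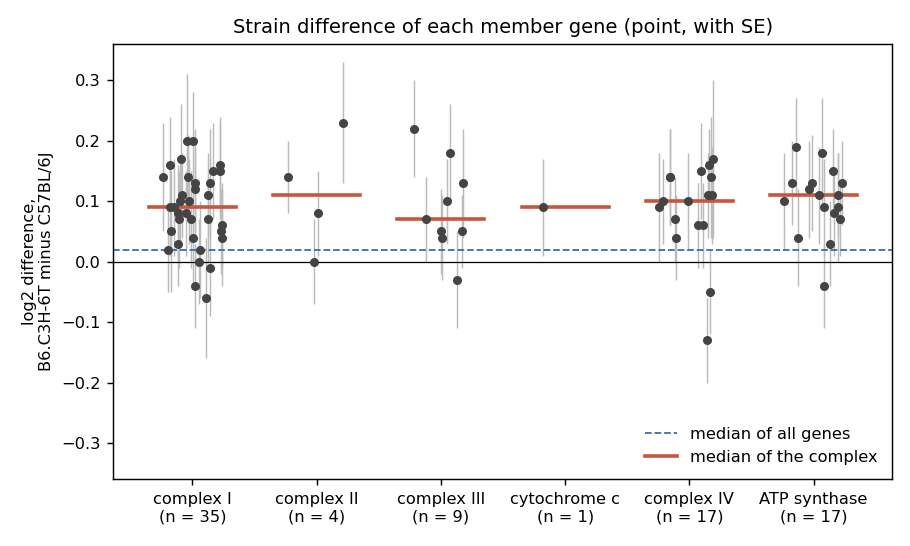
Log2 difference of each subunit gene between the strains (points, with SE from limma, 3 mice per strain), by complex; red bars are the median of a complex and the dashed line is the median of all genes. Medians of the complexes lie between 0.07 and 0.11, above the 0.02 of all genes, and single genes spread from -0.13 to 0.23.

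The shift was uneven among mice of a strain. The mean deviation of all 83 genes from their own mean over the arrays was -0.03, -0.01 and -0.10 in C57BL/6J replicates 1, 2 and 3, and 0.05, 0.12 and -0.04 in B6.C3H-6T replicates 1, 2 and 3. B6.C3H-6T replicate 3 therefore lay below C57BL/6J replicates 1 and 2, and the strains overlapped. B6.C3H-6T replicate 2 held the highest value in 64 of 83 genes (77.1%, against 19.4% of all genes and 33.8% of genes with a mean level above 10), and C57BL/6J replicate 3 the lowest in 52 (62.7%, against 23.1% and 42.6%). Within strains, 47.6% of the variation of these genes was held by their mean deviation on each array, which not every gene followed.

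Brighter genes in general also ran low on C57BL/6J replicate 3. Over the 1677 genes with a mean level above 10, mean deviations were -0.01, 0.04 and -0.07 in C57BL/6J and 0.04, 0.03 and -0.04 in B6.C3H-6T, and 57.5% of these genes were higher in B6.C3H-6T, with a median of 0.02. Of the subunit genes above 10, 66 of 72 were higher, with a median of 0.09. The other 11 subunit genes had 9 higher and a median of 0.11.

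Leaving out single mice moved the size of the shift but not its sign. The median was 0.05 without B6.C3H-6T replicate 2 and 0.06 without C57BL/6J replicate 3. Scaling moved it too, to 0.07 with each array centred on its median and 0.06 with quantile normalization. It was 0.13 without B6.C3H-6T replicate 3, and 19 genes instead of 4 then had an unadjusted p under 0.05, still with 0 called (13.3% of all genes had such a p in that setting). That number was 0 without C57BL/6J replicate 3 (8.94% of all genes), 1 without B6.C3H-6T replicate 1 (10.9%), 1 without B6.C3H-6T replicate 2 (7.59%) and 9 without C57BL/6J replicate 2 (12%). With both C57BL/6J replicate 3 and B6.C3H-6T replicate 2 left out, a choice made after seeing the data, the median was 0.02 and 56 of 83 genes were higher, against 51.9% of all genes.

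**Figure D2:**
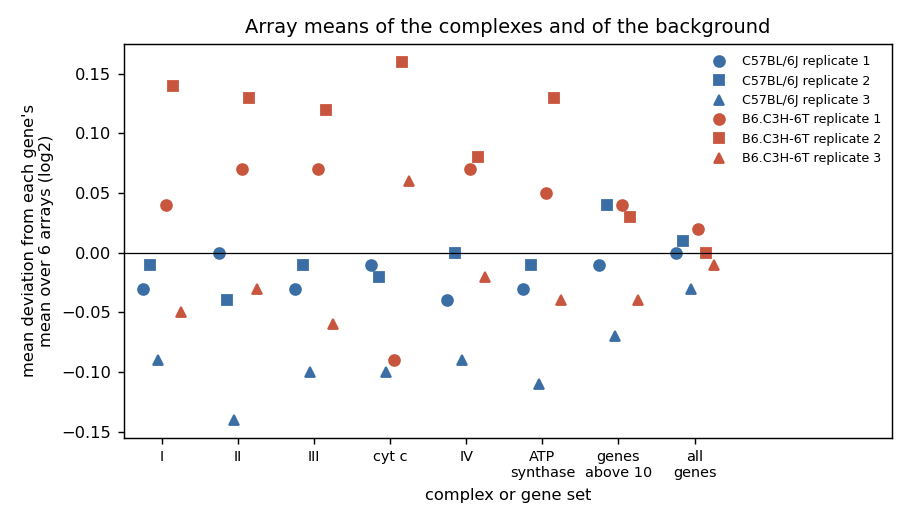
Mean deviation of each array (log2, from each gene's mean over 6 arrays) for the complexes, for all genes with a mean level above 10 and for all genes; blue is C57BL/6J, red is B6.C3H-6T, and circle, square and triangle are replicates 1, 2 and 3. B6.C3H-6T replicate 2 is highest and C57BL/6J replicate 3 lowest in complexes I, II and III, in cytochrome c, in complex IV and in ATP synthase, while B6.C3H-6T replicate 3 lies below at least 1 C57BL/6J array in complexes I to IV and in ATP synthase.

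Complex I had 32 of 35 genes higher and a median of 0.09, with 1 gene at an unadjusted p under 0.05 and 0 called. Ndufs8, which encodes an iron-sulfur subunit on the path of electrons to ubiquinone, read 11.66, 11.79 and 11.74 in C57BL/6J and 11.91, 12.05 and 11.83 in B6.C3H-6T. Every B6.C3H-6T mouse was above every C57BL/6J mouse. The difference was 0.20 ± 0.08 (SE, 1.15-fold; limma adjusted p = 0.355), with a 95% interval of 0.03 to 0.37. All 5 other probe sets of Ndufs8 were higher as well, by 0.14 to 0.21, and 2 of them had an unadjusted p under 0.05.

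Other core subunits of complex I did not pass the test. Ndufv1, the subunit that binds NADH, read 11.37, 11.28 and 11.18 in C57BL/6J and 11.46, 11.57 and 11.30 in B6.C3H-6T, which overlapped (0.17 ± 0.09, adjusted p = 0.476). Its partner Ndufv2 differed by 0.13 ± 0.09, the iron-sulfur subunit gene Ndufs1 by 0.09 ± 0.08 and Ndufs3 by 0.08 ± 0.08. Their intervals ran from -0.09 at the lowest to 0.36 at the highest. Among accessory subunits, Ndufb9 (0.15), Ndufb8 (0.16) and Ndufa13 (0.16) had the smallest p after Ndufs8, with adjusted p from 0.454 to 0.476. Ndufa13 did not overlap between the strains.

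Ndufa13 and Ndufa12, the latter named after its value was seen (0.14), were the other genes of complex I without overlap. Such genes were 3 of 35 here (8.57%), against 10.3% of all genes in that direction. The 3 genes of complex I with a lower mean were Ndufb3 (-0.06 ± 0.10), Ndufb1 (-0.04 ± 0.07) and Ndufs4 (-0.01 ± 0.08), also named after their values were seen. Their intervals all held 0. Ndufa4l2, a paralogue of Ndufa4 known for induction by low oxygen, differed by 0.14 ± 0.09. The probe sets of Ndufa4l2 and Ndufb1 were dim, with C57BL/6J means of 6.41 and 6.85 beside array medians of 6.07 to 6.11.

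Complex II had 3 of 4 genes higher and a median of 0.11. Sdhb, the iron-sulfur subunit, read 11.78, 11.74 and 11.58 in C57BL/6J and 12.00, 12.09 and 11.71 in B6.C3H-6T. B6.C3H-6T replicates 1 and 2 were above all C57BL/6J mice, and replicate 3 was below C57BL/6J replicates 1 and 2. The difference was 0.23 ± 0.10 (1.18-fold, adjusted p = 0.41).

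Sdhc, a membrane anchor, read 11.28, 11.23 and 11.17 against 11.37, 11.37 and 11.35. These groups did not overlap, and the B6.C3H-6T mice were close to each other (0.14 ± 0.06, adjusted p = 0.421). The other anchor gene Sdhd differed by 0.08 ± 0.07. Sdha, the flavoprotein that oxidizes succinate, read 12.25, 12.25 and 12.17 against 12.23, 12.27 and 12.16, a difference of -0.00 ± 0.07 with an interval of -0.15 to 0.14. The 4 genes of this enzyme thus spanned differences from -0.00 to 0.23, and differences between them were not tested.

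Complex III had 8 of 9 genes higher and a median of 0.07. Cyc1, the cytochrome c1 subunit that hands electrons to cytochrome c, had the smallest p of all 83 genes. It read 11.98, 11.94 and 11.85 in C57BL/6J and 12.15, 12.28 and 12.01 in B6.C3H-6T, without overlap. The difference was 0.22 ± 0.08 (1.17-fold; interval 0.04 to 0.41; limma adjusted p = 0.35), from a single probe set.

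The core protein gene Uqcrc1 differed by 0.18 ± 0.08 (adjusted p = 0.436), and the Rieske iron-sulfur gene Uqcrfs1 by 0.07 ± 0.07. Of the small subunits, Uqcrb differed by 0.13 ± 0.09 and Uqcrq by 0.10 ± 0.07, the latter without overlap between the strains. Uqcrq was at -0.01 once probe sets marked as able to match several transcripts were left out, from a dim probe set with a mean level of 6.07. Its other unmarked probe sets, with mean levels of 5.85 and 5.21, differed by 0.01 ± 0.08 and 0.24 ± 0.08. Non-overlapping genes were 2 of 9 (22.2%, against 10.3% of all genes and 13.6% of genes with a mean level above 10). Uqcrc2, the second core protein gene, was the lower gene of this complex (-0.03 ± 0.08, named after its value was seen). Its interval of -0.22 to 0.16 overlapped that of Uqcrc1, from -0.01 to 0.36.

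Cycs, the soluble electron carrier between complexes III and IV, read 12.01, 12.01 and 11.93 in C57BL/6J and 11.94, 12.19 and 12.09 in B6.C3H-6T. B6.C3H-6T replicate 1, which was high for most subunits, was among the low mice here. The difference was 0.09 ± 0.08 (adjusted p = 0.684), and the 3 other probe sets of Cycs had a median of 0.11. Cycs lies on chromosome 6, as do Ndufa4, Ndufa5, Ndufa9 and Ndufb2. All 5 were higher by 0.07 to 0.09, close to the median of all members, and none had an unadjusted p under 0.05.

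**Figure D3:**
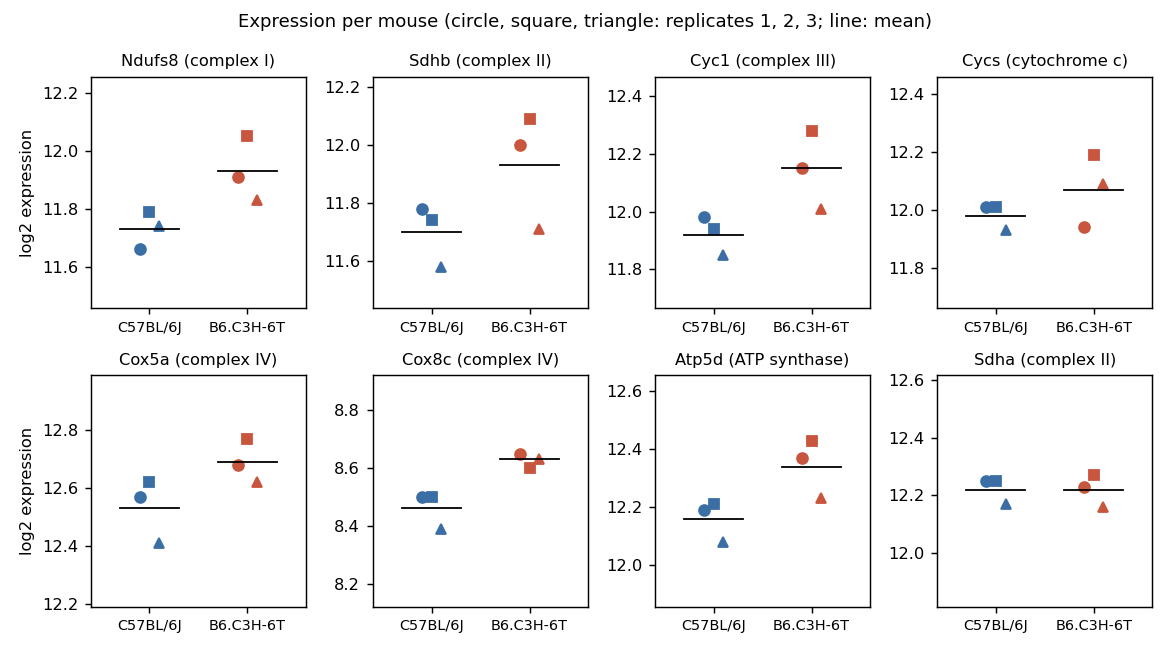
Log2 expression of 8 subunit genes in each mouse (blue, C57BL/6J; red, B6.C3H-6T; circle, square and triangle, replicates 1, 2 and 3; line, mean of 3), each panel spanning the same range of 0.8. Cyc1, Ndufs8, Atp5d and Cox8c do not overlap between strains, Sdhb, Cox5a and Cycs do, and Sdha shows no separation.

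Complex IV had 15 of 17 genes higher and a median of 0.10. It includes subunits made in most tissues and isoforms known from muscle, lung or testis. Among the broadly made subunits, Cox5a read 12.57, 12.62 and 12.41 in C57BL/6J and 12.68, 12.77 and 12.62 in B6.C3H-6T, which met at 12.62 (0.15 ± 0.08, adjusted p = 0.462). Cox5b differed by 0.14 ± 0.08 and Cox4i1 by 0.07 ± 0.07. The liver forms Cox6a1, Cox7a2 and Cox8a differed by 0.06, 0.10 and 0.06, each with an SE of 0.07. None passed.

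Their counterparts from muscle, Cox6a2, Cox7a1 and Cox8b, differed by 0.11 ± 0.08, 0.17 ± 0.13 and 0.14 ± 0.08. The lung form Cox4i2 differed by 0.09 ± 0.09, and the testis forms Cox6b2 and Cox7b2 by 0.14 ± 0.10 and 0.11 ± 0.07. None of these isoforms passed, the smallest unadjusted p being 0.127, and their difference from the liver forms was not tested. Several of their probe sets were dim, with C57BL/6J means of 3.99 for Cox7b2, 5.64 for Cox8b, 5.90 for Cox7a1, 6.14 for Cox4i2 and 6.21 for Cox6b2 beside array medians of 6.07 to 6.11. Mean levels of the 6 skeletal muscle markers ranged from 5.38 to 5.53 in C57BL/6J and from 5.43 to 5.58 in B6.C3H-6T. Of those 6 genes 4 were higher, and those of 5 heart markers 2. Their part in these values was not tested.

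Cox8c, known from testis, was the gene of complex IV with an unadjusted p under 0.05. It read 8.50, 8.50 and 8.39 in C57BL/6J and 8.65, 8.60 and 8.63 in B6.C3H-6T, without overlap (0.16 ± 0.06, adjusted p = 0.376). Its second probe set differed by 0.10 ± 0.07. Cox7c was lower without overlap (-0.13 ± 0.07, adjusted p = 0.511), the only member to be so (1 of 83, against 7.49% of all genes). The probe set of Cox7c had a mean of 5.18 in C57BL/6J, and its second probe set differed by 0.04. Cox7a2l, a factor that joins complexes III and IV and is named after its value was seen, differed by -0.05 ± 0.07.

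ATP synthase had 16 of 17 genes higher, and its median of 0.11 was like that of complex II. Atp5d, the delta subunit of the central stalk, read 12.19, 12.21 and 12.08 in C57BL/6J and 12.37, 12.43 and 12.23 in B6.C3H-6T, without overlap. The difference was 0.19 ± 0.08 (1.14-fold, adjusted p = 0.383), and its second probe set differed by 0.11 ± 0.07. Of the other genes of the catalytic part, Atp5b, the catalytic beta subunit, differed by 0.13 ± 0.07, Atp5a1, the alpha subunit, by 0.11 ± 0.08, and Atp5c1, the gamma subunit of the rotating stalk, by 0.04 ± 0.08.

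The 3 genes Atp5g1, Atp5g2 and Atp5g3 encode the same mature ring subunit with different import signals. Atp5g1 read 11.61, 11.55 and 11.44 in C57BL/6J and 11.66, 11.87 and 11.60 in B6.C3H-6T, a difference of 0.18 ± 0.09. Atp5g3 differed by 0.12 ± 0.08 and Atp5g2 by -0.04 ± 0.07, the lower gene of this complex. Their 95% intervals, -0.02 to 0.37, -0.06 to 0.29 and -0.20 to 0.11, overlapped. The peripheral stalk gene Atp5pb differed by 0.13 ± 0.07 and the membrane subunit gene Atp5j2 by 0.15 ± 0.07. Atp5d, Atp5j2, Atp5h and Atp5mpl (the last 2 named after their values were seen) did not overlap between the strains. These were 4 of 17 genes (23.5%, against 10.3% of all genes and 13.6% of genes with a mean level above 10).

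Over all complexes, 12 of 83 genes were higher without overlap (14.5%, against 10.3%) and 1 was lower (against 7.49%). In either direction 17.8% of all genes did not overlap. Among genes with a mean level above 10, 13.9% of members and 13.6% of all genes were higher without overlap. After the mean of all 83 genes was taken from each array, a description chosen after seeing the data, some genes lay above and some below the rest without overlap. This centring itself brings both sides towards balance, so their numbers are not read. Cyc1 (0.13), Ndufs8 (0.11) and Atp5d (0.10) were the furthest above the members' mean among those without overlap, and Cox7a2l (-0.14), Atp5g2 (-0.13) and Ndufs4 (-0.10) the furthest below. Sdhb stood at 0.14 with overlap. Sdha, at -0.09, had a spread within strains of 0.05 before and 0.02 after the members' mean was taken off. Such narrowing was not particular to Sdha. Atp5b went from 0.08 to 0.02 and Cox4i1 from 0.07 to 0.02, while some genes widened, such as Cox4i2 (0.12 to 0.17).

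Other probe sets of the same genes were mostly higher too. Of 86 further probe sets for 49 genes, 73 were higher and 13 lower, with a median of 0.08. At an unadjusted p under 0.05 there were 8, all higher (against 10.6% of all probe sets in either direction and 5.74% higher), and 0 were called in limma over all probe sets. The sign matched that of the representing probe set in 75 of 86. Among the 48 with a mean level above 10, 44 were higher and 46 matched. Probe sets of a gene share the same 6 RNA samples and are not independent of each other.

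**Figure D4:**
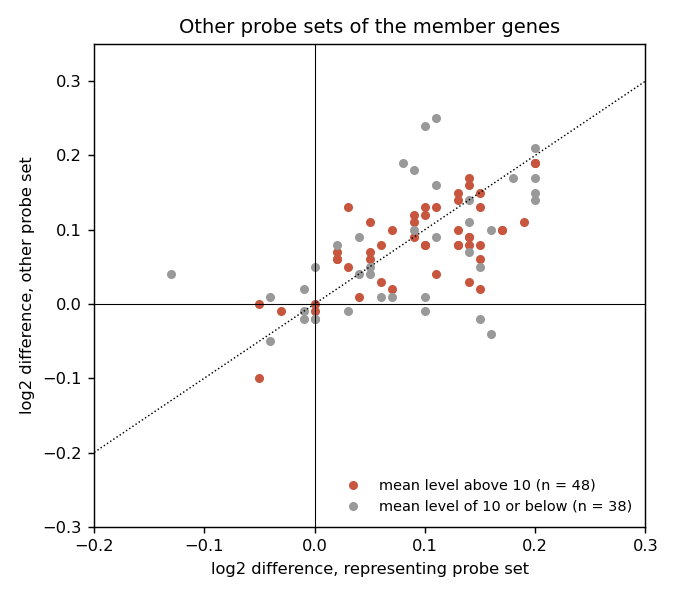
Log2 difference between the strains in each further probe set (vertical axis) against the probe set that represents its gene (horizontal axis), 86 probe sets of 49 genes; red and grey mark probe sets with a mean level above 10 and of 10 or below, and the dotted line marks equal values. Most points lie in the upper right, with 75 of 86 on the same side of 0 as the representing probe set.

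Lists of other genes of the pathway had medians from -0.04 to 0.04, apart from the 1 transcript of mitochondrial DNA, and their difference from the subunits was not tested. The measured transcript of mitochondrial DNA, ND5 of complex I, read 13.04, 13.14 and 13.06 in C57BL/6J and 13.23, 13.23 and 13.13 in B6.C3H-6T (0.11 ± 0.07, adjusted p = 0.518). The other transcripts of mitochondrial DNA were not analysed here. Assembly factors, which help to build the complexes, went both ways in the 5 lists fixed for them, with medians from -0.03 to 0.04. For complex I, 10 of 15 were higher, with Timmdc1 at 0.31 ± 0.09 and Tmem126b at -0.29 ± 0.07, both without overlap and both at an unadjusted p under 0.05 (adjusted p = 0.256 and 0.24).

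For complex IV, 10 of 19 assembly factors were higher. Sco2, a copper chaperone, differed by -0.20 ± 0.08, Cox15, which makes heme A, by -0.15 ± 0.06, and Cox20 by 0.14 ± 0.06. For complex III, 3 of 6 were higher, with Lyrm7 at 0.20 ± 0.09, Uqcc2 at 0.17 ± 0.09 and Ttc19 at -0.13 ± 0.08. Complex II had 3 of 4 higher and ATP synthase 1 of 4. None of these factors was called in limma, and at an unadjusted p under 0.05 there were 2 higher and 3 lower among all 5 lists, against 12.2% of all genes in either direction.

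Transcription and mitochondrial DNA factors had 8 of 20 higher and a median of -0.04. Ppargc1a, a coactivator of mitochondrial genes, read 7.36, 7.04 and 7.28 in C57BL/6J and 7.38, 7.47 and 7.50 in B6.C3H-6T, without overlap (0.23 ± 0.09, adjusted p = 0.375). Tfam, which packs and transcribes mitochondrial DNA, went the other way, from 9.42, 9.38 and 9.35 to 9.19, 9.04 and 9.27 (-0.22 ± 0.08, adjusted p = 0.329). Polg, the mitochondrial DNA polymerase, differed by -0.24 ± 0.09, but by 0.04 with its probe set of median p. None of the factors whose motifs were searched was called. Nrf1, which lies on chromosome 6, differed by -0.04 ± 0.07, Gabpa by 0.09 ± 0.07, Esrra by 0.12 ± 0.08 and Yy1, named after its value was seen, by -0.09 ± 0.08.

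The list of ubiquinone synthesis and electron entry genes held the widest differences of these lists. Coq8a, a kinase-like protein of ubiquinone synthesis, read 11.22, 10.89 and 10.82 in C57BL/6J and 11.57, 11.74 and 11.30 in B6.C3H-6T, without overlap (0.56 ± 0.13, 1.47-fold, adjusted p = 0.212). Prodh, which oxidizes proline, differed by 0.56 ± 0.18 and Gpd2, which passes on electrons from glycerol 3-phosphate, by -0.37 ± 0.11. The list had 10 of 20 higher, a median of -0.00 and 2 genes at an unadjusted p under 0.05 in each direction (6.36% of all genes were higher and 5.82% lower at that p).

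The citric acid cycle had 10 of 14 higher and a median of 0.03, with Mdh2 at 0.22 ± 0.07, Fh1 at 0.16 ± 0.07 and Pcx at -0.14 ± 0.08. Carriers had 9 of 11 higher and a median of 0.02, and import and quality control genes 6 of 14 and -0.03, with Hspe1 at 0.18 ± 0.07. C57BL/6J is known to carry a deletion in Nnt, the transhydrogenase that spends the proton gradient to make NADPH, and the congenic strain has that background. Nnt read 9.29, 9.30 and 9.33 in C57BL/6J and 9.44, 9.28 and 9.44 in B6.C3H-6T (0.08 ± 0.07), and another of its probe sets differed by -0.13. Whether its probes lie in the deleted part is not given in the sources used here. No gene of these lists was called.

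**Figure D5:**
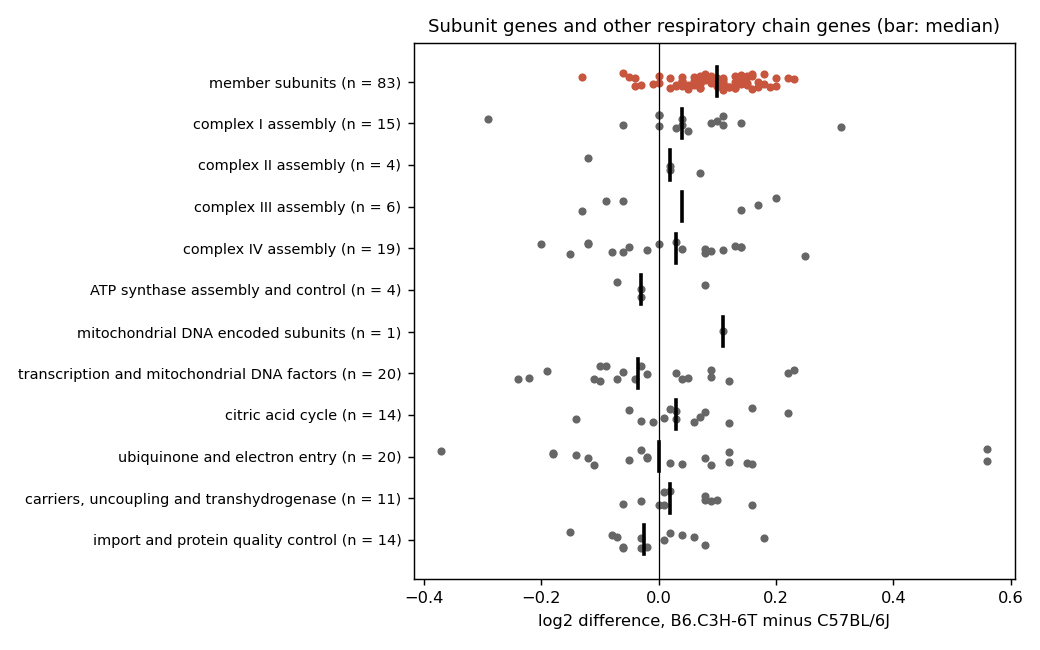
Log2 difference of each subunit gene (red) and of each gene of 11 lists of the pathway (grey) between the strains; black bars are medians. The subunits cluster above 0 with a median of 0.10, while list medians other than that of the 1 mitochondrial DNA transcript lie between -0.04 and 0.04 and single genes spread from -0.37 to 0.56.

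Mean levels of hepatocyte and Kupffer cell markers did not overlap between the strains, and in whole liver fewer cells of a type and less RNA per cell cannot be told apart. The mean level of 6 hepatocyte markers ranged from 13.66 to 13.72 in C57BL/6J and from 13.79 to 13.85 in B6.C3H-6T, with 5 of 6 higher. At an unadjusted p under 0.05 there were 2, both higher (6.36% of all genes were higher at that p). Those 2, named after their values were seen, were Tat (0.42 ± 0.09) and Cps1 (0.26 ± 0.07), both regulated enzymes. Alb, Apoa1, Apob and Ttr differed by 0.02, 0.02, -0.04 and 0.08, and the list's median of 0.05 was below its mean of 0.13. The mean level of 6 Kupffer cell markers, the resident macrophages, ranged from 9.28 to 9.57 and from 8.99 to 9.20, with 6 of 6 lower. Of these, 5 had an unadjusted p under 0.05 (5.82% of all genes were lower at that p). B6.C3H-6T replicate 2, highest in the subunits, was highest in the hepatocyte markers (13.85) and lowest in the Kupffer cell markers (8.99). C57BL/6J replicate 3, lowest in the subunits, was lowest in the hepatocyte markers (13.66), but C57BL/6J replicate 2 was highest in the Kupffer cell markers (9.57). Endothelial, stellate cell and lymphocyte markers overlapped, with medians of -0.07, 0.02 and -0.09. Cholangiocyte markers were 4 of 4 higher with a median of 0.09. Their mean levels ranged from 6.34 to 6.39 in C57BL/6J and from 6.39 to 6.52 in B6.C3H-6T. Markers of tissues outside liver had varied medians. They were 0.11 for pancreas (4 of 4 higher, mean levels not overlapping), 0.09 for kidney (4 of 5) and 0.08 for adipocytes (4 of 4). Skeletal muscle markers had a median of 0.06 (4 of 6 higher) and heart muscle markers -0.01 (2 of 5). On every array the pancreas, kidney, skeletal muscle and heart muscle lists had mean levels below the array medians of 6.07 to 6.11. No marker was called, and no value in the table is at 0. The part of these markers in the subunit values was not tested. The Actb 3′ probe set exceeded its 5′ probe set, a sign of RNA quality, by 0.59 to 0.61 in C57BL/6J and 0.53 to 0.70 in B6.C3H-6T. For Gapdh this was 0.18, 0.15 and 0.15 in C57BL/6J and 0.16, 0.21 and 0.13 in B6.C3H-6T, with B6.C3H-6T replicate 2 highest and B6.C3H-6T replicate 3 lowest. Its part in the subunit values was not tested.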

How the data were processed

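Liver RNA of 6 mice was measured on Affymetrix arrays. The deposited values are log2 expression per probe set, made with RMA in affy per the submitters' processing notes, after quantification with GCOS 1.2 per the labels. Software versions, probe annotation and scan batches: not given in the sources used here. RMA brings the probe values of the arrays to 1 distribution, which can hide a shift of all genes. The probe set values used here were not fully alike, with array medians of 6.07 to 6.11. Oligo(dT) priming, per the labels, favours 3′ ends. Precision is limited by 3 arrays per strain.

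From 45101 probe sets 64 controls were removed. The platform annotation paired 34945 with 1 gene, 932 with several (not used to represent genes) and 9160 with none listed. Symbols were updated through gene identifiers to the RefSeq table of GRCm38.p6. The probe set of highest mean over all arrays stood for its gene. The strain contrast used lmFit and eBayes of limma 3.58.1 (R 4.3.3), with no covariate or filter, with Benjamini-Hochberg adjustment over all 18194 genes and a threshold of 0.05. SE and 95% intervals are limma's. The fit was tested on simulated data, where it called 4.9% of genes with a true log2 difference of 0.25 and 62% of those with 0.5. There 200 of 18194 genes were changed, and noise was drawn for each gene independently, unlike the partly shared variation of the subunits. The largest subunit difference was 0.23, so under those settings the test would miss most differences of such a size. Alternatives were other scalings, filters on dim genes, probe set choices, variance models, array weights and leaving out each array. Named genes were up to 4 members of smallest p per complex, fixed core and isoform genes, members on chromosome 6, up to 3 genes per list and 6 fixed factors; exceptions are marked. The members and lists were chosen with earlier results of these data known, so no list was tested.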

Additional observations from a re-analysis of the deposited data

How the results depend on the processing

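No subunit gene was called in any setting, and the smallest adjusted p among them lay between 0.192 and 0.831. The median over all 83 genes was positive in every setting, from 0.05 to 0.13 with 1 array left out. It was 0.02 without C57BL/6J replicate 3 and B6.C3H-6T replicate 2 together (chosen after seeing the data), when complex I was at 0.01 and complex IV at 0.04. Complex I ranged from 0.05 to 0.14 with 1 array left out. The number higher ranged from 67 to 77 with 1 array left out and was 56 without both. Centring each array on its median gave a median of 0.07 and 72 higher, against 46.6% of all genes, whose median was then -0.01. Quantile normalization gave 0.06 and 69 higher, against 54.4% of all genes, whose median was 0.01.
Genes at an unadjusted p under 0.05 (4) numbered 1 after centring, 7 with the mean of all probe sets, 7 with array weights and 1 without both arrays. With 1 array left out they ranged from 0 (without C57BL/6J replicate 3) to 19 (without B6.C3H-6T replicate 3), with 0 to 10 in complex I, 0 to 1 in II, 0 to 2 in III, 0 to 4 in IV and 0 to 4 in ATP synthase. Complex I (1) had 0 after centring and 2 with the mean of probe sets, the probe set of median p or array weights. Complex II (0) had 1 with the mean of probe sets, without probe sets marked as able to match several transcripts (suffix _x_at or _s_at), with a variance trend or without moderated variances, and 2 with array weights. Complex III (1) had 0 without moderated variances and without both arrays. Complex IV (1) had 0 after centring or without both arrays and 2 with quantile normalization or the mean of probe sets. ATP synthase (1) had 2 with the probe set of median p and 0 after centring, without such marked probe sets, without moderated variances and without both arrays.
The sign turned in some genes. Without both arrays Atp5c1 was -0.03, Cox6a1 -0.01, Cox7a1 -0.02, Cycs -0.00, Ndufa5 -0.01, Ndufb2 -0.02 and Sdhaf2 -0.01. Quantile normalization gave Cox6a1 -0.02 and Atpaf1 0.00, and centring gave Sdhaf2 -0.01. Without such marked probe sets Cox7c was 0.04, Uqcrq -0.01 and Nnt -0.13. The probe set of median p gave Nnt -0.13, Polg 0.04 and Ndufs4 0.02. The mean of probe sets gave Sdha 0.01 and Gabpa -0.00, and array weights gave Sdha 0.01. With 1 array left out, Atp5c1 ranged from -0.00 to 0.11, Sdha ranged from -0.03 to 0.03, Sdhaf2 ranged from -0.01 to 0.05, Ndufb1 ranged from -0.08 to 0.02, Ndufs4 ranged from -0.08 to 0.05, Yy1 ranged from -0.14 to 0.00 and Uqcrc2 ranged from -0.10 to 0.05. Cox7a1 reached 0.33 without B6.C3H-6T replicate 3 and Cycs 0.16 without B6.C3H-6T replicate 1. Without both arrays Sdha was -0.06 and Ndufb1 -0.09. The cause of these changes was not tested. No paired analysis was made because the labels give no pairing of mice. Each mouse has its own pedigree number, and whether these numbers mark litters is not stated. The 3 arrays per strain limit all of these values.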
